A study of Mus musculus with 36 samples.

Results

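The liver transcriptome of wild-type mice killed after a 6 h meal was compared with that of wild-type mice killed fasted. The comparison rested on 12 of the 36 libraries of the series, namely the 6 wild-type mice given chow for 6 h after a 16 h fast (refed) and the 6 wild-type mice killed at the end of a 16 h fast (fasted). The members were taken from the sample titles.

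Feeding after a fast raises circulating insulin and glucose and brings amino acids and lipid to the liver. Insulin restrains glucose production through AKT and the transcription factor FOXO1 and promotes lipid synthesis through the sterol regulatory element binding proteins SREBP1c and SREBP2, while fasting favours fatty acid oxidation and ketone body synthesis through the nuclear receptor PPARα. The hepatocyte also secretes most plasma proteins, so that the folding machinery of the endoplasmic reticulum (ER) is prominent in this tissue.

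All mice were male, 16 weeks old and on the C57Bl/6J background, and the series also holds fed mice and mice heterozygous for Pik3r1 Y657*, a truncation of the p85α regulatory subunit of phosphoinositide 3-kinase. Neither group compared here carried the truncation or received any agent. Libraries were made from total RNA of liver tissue with a stranded kit. The mice carry numbers in the sample titles that fall into a low series (from ONF_MT_806 to RF6_WT_828) and a high series (from RF6_WT_896 to ONF_MT_923), with 3 fasted and 3 refed wild-type mice in each, and the number series was kept as a block in every test. Mice are named by title, in which ONF marks fasted, RF6 refed and ALC fed mice, and WT or MT the genotype.

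Between 8839488 and 19542775 counts per library were available over the 12 mice. Levels are given as CPM, counts per library size after scaling by trimmed means, which are not divided by gene length, so that levels of different genes are not compared. Differences are given as log2 fold changes, refed over fasted, from edgeR's quasi-likelihood test. That test prints no standard error. The standard errors given are the absolute log2 fold change divided by the square root of the test's F statistic, and are approximate. A gene was called where its Benjamini-Hochberg adjusted p, over the 13033 genes tested, was under 0.05. Fasted mouse ONF_WT_807 stood apart from all other libraries on the second dimension of a multidimensional scaling plot (1.36, against -0.47 to 0.55 in the other 11). Its serum amyloid gene Saa1, an acute-phase gene, stood at 1661 CPM against 15.5 to 29.3 CPM in the other 5 fasted mice. Refed mouse RF6_WT_828 stood at 295 CPM of Saa1 against 8.08 to 37.6 CPM in the other 5 refed mice. Counts without both mice are given with the main lists. Refed mice were killed after 6 h of feeding that followed the fast and fasted mice at its end, all fasted libraries carried 1 i5 index sequence and all refed libraries another, and neither time of day nor index can be told apart from feeding in these data.

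Refeeding was accompanied by widespread change. Of 13033 genes tested, 2510 were called higher in refed mice (19.3% of genes tested) and 2388 were called lower (18.3%), 37.6% in either direction. The change reached at least 2-fold for 229 genes called higher (1.76%) and 227 called lower (1.74%), 3.5% in all. In 2324 genes (17.8%) the CPM of the 6 refed mice did not overlap with that of the 6 fasted mice, with all refed mice higher for 9.62% and lower for 8.21% of genes tested. Without mice ONF_WT_807 and RF6_WT_828, 4754 genes were called, 2434 of them higher and 2320 lower. Of 4890 called genes that could be fitted in each number series alone, 4886 kept their direction in both, although each of these series had entered the joint fit. With scaling to library size alone, in place of trimmed means, the median of all genes moved from 0.00 to 0.07 on the log2 scale and the split became 3326 higher and 1696 lower, 66.2% of calls higher in place of 51.2%. Small differences of 1 sign therefore depended on the scaling.

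**Figure D1:**
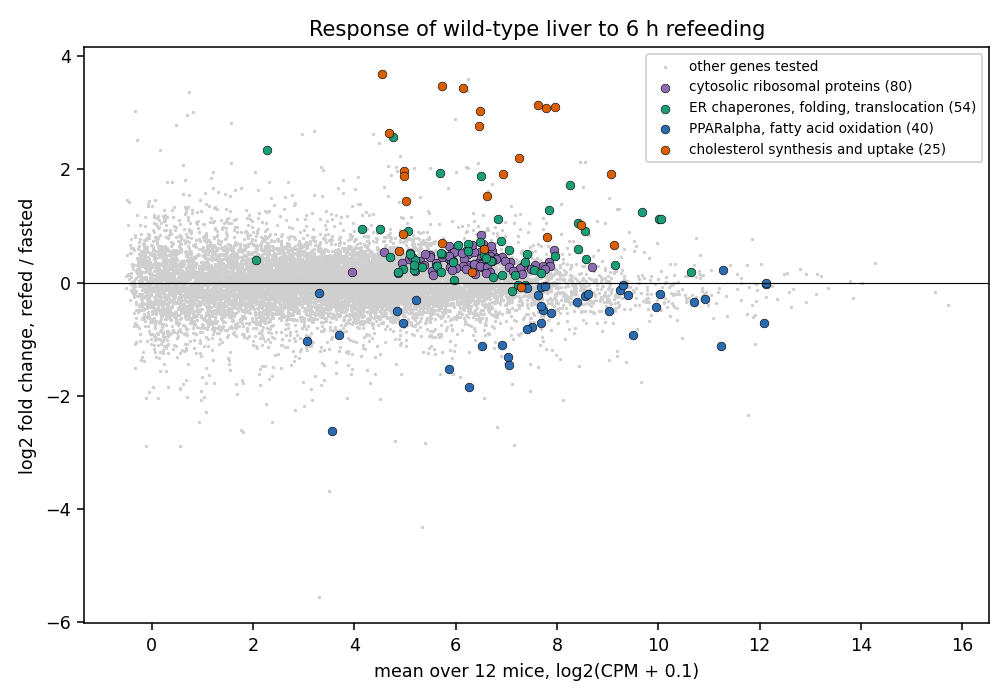
Log2 fold change (refed over fasted) of each of the 13033 genes tested against its mean level over 12 mice on a log2(CPM + 0.1) scale. Grey points are single genes, and coloured points are members of 4 gene lists with the number tested in brackets. Members of the cholesterol list (orange) sit at up to 3.70, and those of the fatty acid oxidation list (blue) lie mostly below 0.

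Genes of cholesterol synthesis and uptake rose together and by the largest amounts of any list examined, with 22 of 25 members called higher, none called lower and a median log2 fold change of 1.91 against 0.00 over all genes tested. At least a 2-fold rise was seen for 17 of the 25, and the 2 groups of mice did not overlap for 21. Without mice ONF_WT_807 and RF6_WT_828, 22 were called higher with a median of 1.84.

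The steepest rise of all named genes was that of Mvd, which decarboxylates mevalonate diphosphate. It stood at 1.74 to 4.08 CPM (median 2.97) in fasted and 15.96 to 97.4 CPM (median 34.1) in refed mice, a log2 fold change of 3.70 ± 0.37 (edgeR, adjusted p = 4.09e-05). Every refed mouse was above every fasted one. Fed mice stood at 16.5 to 34.9 CPM (median 22.1). Sqle, squalene epoxidase, a control point of the pathway, stood at 6.39 to 14.6 CPM (median 10.6) in fasted and 55.0 to 262 CPM (median 113) in refed mice (3.44 ± 0.36 on the log2 scale). Other members that act between acetyl-CoA and lanosterol moved alike, with log2 fold changes of 1.91 for Hmgcs1, 2.65 for Mvk, 3.14 for Idi1 and 3.04 for Fdps. Of the later steps, Msmo1 (deposited as Sc4mol) rose by 3.11 and Nsdhl by 1.89 log2 units. The 3 members that were not called were Tm7sf2 (log2 0.19 ± 0.17), Hsd17b7 (log2 0.59 ± 0.27) and Ebp (log2 -0.08 ± 0.08), all enzymes downstream of lanosterol.

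Other members control the pathway or carry its product. Srebf2, which encodes SREBP2, rose by 0.56 ± 0.10 log2 units, from a median of 23.03 to 34.4 CPM, and Stard4, a sterol carrier, rose by 1.52 ± 0.19 log2 units. Tmem97, a sterol-regulated membrane protein, had the smallest p of the list at a log2 fold change of 0.70 ± 0.09 (edgeR, adjusted p = 5.59e-06).

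SREBP2 acts through sterol regulatory elements that lie close to start sites, commonly beside binding sites of the CCAAT-binding factor NF-Y. Promoters of RefSeq on GRCm38.p6, 250 bases upstream of each listed start, were searched on both strands for 9910 of the 13033 genes tested. The sterol element core TCACNCCAC was found for 130 genes (1.31%) and for 1 of the 17 cholesterol genes with a promoter, Hmgcs1, which acts early in the pathway. The letters CCAAT were found for 16 of those 17 genes and for 4005 of all 9910 (40.4%). The stretch that holds the core in Hmgcs1, at chr13:119690202-119690234 on the plus strand, 117 to 149 bases upstream of the start, is shown with the core in capitals.
Hmgcs1: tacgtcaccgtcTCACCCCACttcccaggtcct
A match of letters is a description of the window and not evidence of binding.

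Fatty acid synthesis genes did not move as 1 block. Of 19 members tested (20 listed), 10 were called higher and 5 lower, with a median of 0.48. Fasn, fatty acid synthase, stood at 101 to 158 CPM (median 121) in fasted and 370.2 to 1044 CPM (median 503.9) in refed mice without overlap (2.13 ± 0.23 on the log2 scale, edgeR adjusted p = 6.33e-05). Fed mice stood at 960.4 to 3004 CPM (median 1614), so that 5 of the 6 refed mice lay below all 6 fed mice. Thrsp, a lipogenic nuclear protein also called Spot 14, stood at 5.12 to 18.8 CPM (median 13.99) in fasted and 81.7 to 181 CPM (median 147) in refed mice and at 283 to 1455 CPM (median 589) in fed mice. Mid1ip1, its relative that activates acetyl-CoA carboxylase, rose by 2.03 ± 0.22 log2 units, Acly by 0.94 ± 0.14 and Acaca, the cytosolic acetyl-CoA carboxylase, by 0.64 ± 0.10. Elovl6, which elongates palmitate, rose by 0.996 ± 0.23 log2 units, Srebf1 by 1.19 ± 0.21 and Nr1h3, the oxysterol receptor LXRα, by 0.48 ± 0.06. For Srebf1 the refed mice, at 137 to 247 CPM (median 209), stood below every fed mouse, at 451 to 607 CPM (median 526).

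The 5 members that fell were Insig2, Elovl5, Acacb, Scap and Scd1. Insig2, which holds SREBP in the ER, had the smallest p of all genes tested: it stood at 413 to 497 CPM (median 444) in fasted mice and at 94.8 to 134 CPM (median 104) in refed mice, a log2 fold change of -2.07 ± 0.08 (edgeR, adjusted p = 1.85e-12). Its paralogue Insig1, a target of SREBP, moved the other way, at 95.2 to 167 CPM (median 141) in fasted and 309.6 to 1050.2 CPM (median 542) in refed mice (log2 2.14 ± 0.30). Scd1, which desaturates stearate, stood at 408 to 9124 CPM (median 6845) in fasted mice and at 485 to 1997 CPM (median 1037) in refed mice. The groups overlapped: fasted mouse ONF_WT_807 held 408 CPM, while the other 5 fasted mice held 3074 to 9124 CPM. The log2 fold change of Scd1 was -2.35 ± 0.71 (edgeR, adjusted p = 0.027), and the call was lost by limma-voom (adjusted p = 0.0776), in the low series alone and when any of 5 mice other than ONF_WT_807 was left out. Elovl5, which elongates polyunsaturated fatty acids, fell by 0.81 ± 0.08 log2 units, Acacb, the mitochondrial acetyl-CoA carboxylase, by 0.59 ± 0.09 and Scap, which escorts SREBP out of the ER, by 0.31 ± 0.06. Of the 15 members called, the refed median was below all 6 fed mice for 12 and above all of them for 2. Fed mice belonged to neither number series, shared no test with the refed mice and serve only as a reference level.

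**Figure D2:**
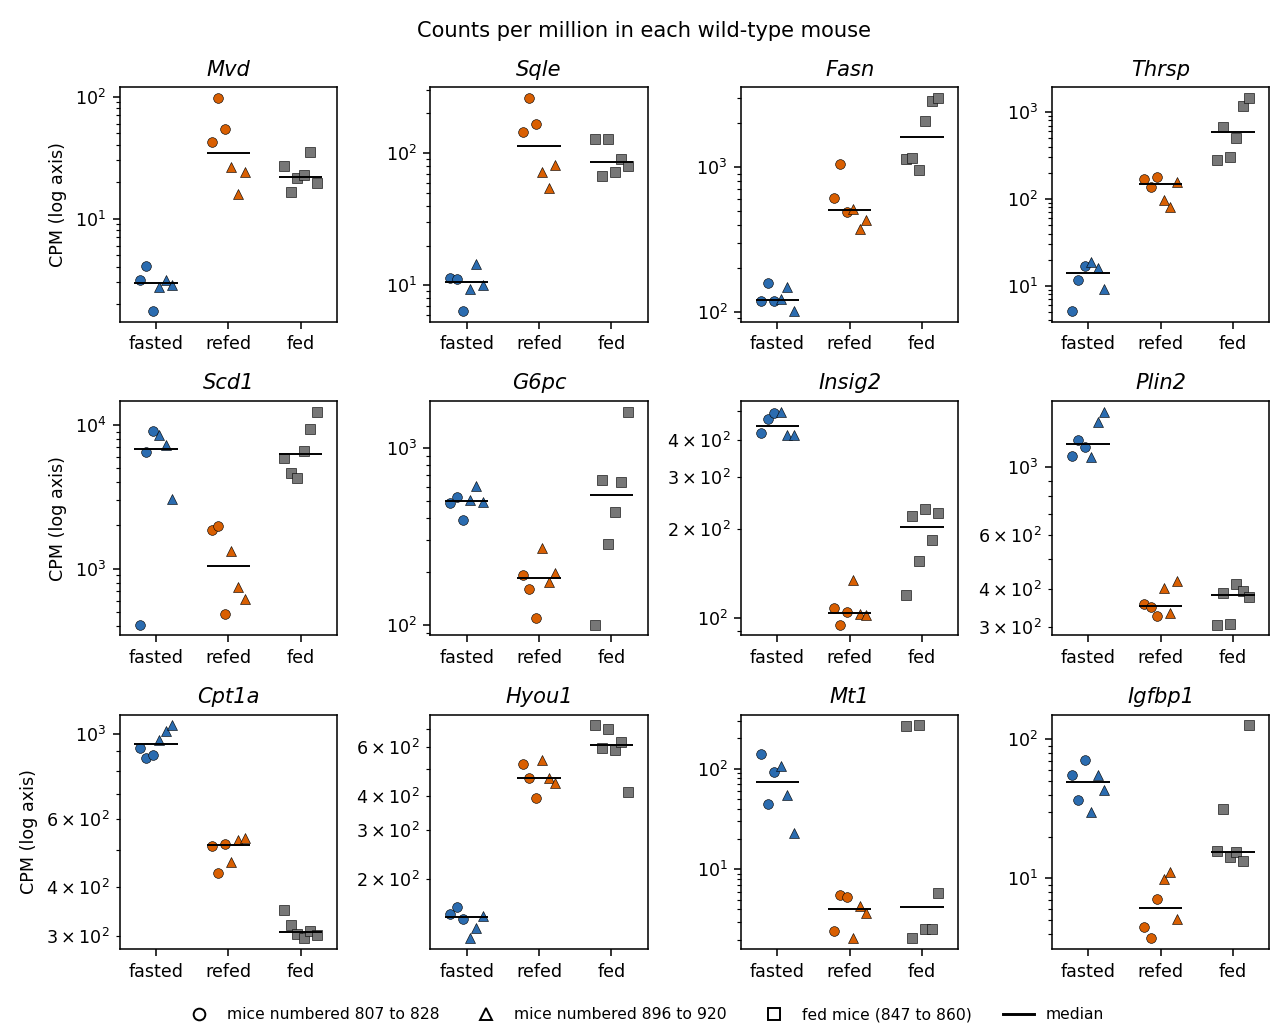
CPM on a log axis of 12 genes in each of the 6 fasted, 6 refed and 6 fed wild-type mice, each point being 1 mouse, its shape the number series and the line the group median. Mvd, Sqle, Fasn, Thrsp and Hyou1 are higher in refed than in fasted mice, and Insig2, Plin2, Cpt1a, G6pc, Mt1 and Igfbp1 are lower without overlap. For Scd1, 1 fasted mouse at 408 CPM lies below the refed mice.

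Of the 12 genes with the largest rise, without overlap and with a mean of at least 1 CPM, 8 belonged to the cholesterol and fatty acid lists, and the other 4 were Aacs, Ptk6, 4930483K19Rik and Gm3571. Aacs, which activates acetoacetate for lipid synthesis in the cytosol, stood at 8.14 to 13.6 CPM (median 11.02) in fasted and 75.6 to 328 CPM (median 97.7) in refed mice (log2 3.60 ± 0.36). The tyrosine kinase gene Ptk6 stood at 0.0715 to 0.561 CPM (median 0.386) in fasted and 1.82 to 3.60 CPM (median 2.73) in refed mice (log2 2.96 ± 0.34). The RIKEN clone gene 4930483K19Rik (log2 3.37 ± 0.42) and the predicted gene Gm3571 (log2 3.02 ± 0.51) both stood at a median of 2.40 CPM in refed mice.

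Of 29 genes of glucose uptake, glycolysis and the carbohydrate sensor ChREBP, 11 were called higher and 4 lower, with a median of 0.11. These were 37.9% and 13.8%, against 19.3% and 18.3% over all genes tested. Pfkfb3, which makes the glycolytic activator fructose 2,6-bisphosphate, stood at 2.85 to 6.07 CPM (median 4.56) in fasted and 11.9 to 17.6 CPM (median 12.96) in refed mice (log2 1.55 ± 0.15). Mlxipl, which encodes ChREBP, rose by 0.35 ± 0.07 log2 units and its partner Mlx by 0.54 ± 0.07, while Pklr, the liver pyruvate kinase, rose by 0.67 ± 0.18 log2 units. Txnip, which limits glucose uptake, fell by 0.91 ± 0.12 log2 units, and Arrdc4, its relative, by 0.65 ± 0.11. Khk (log2 -0.29) and Ldha (log2 -0.25) were the other 2 members called lower, with calls lost in 4 and 10 of 26 alternatives, library size scaling among them for both (edgeR, adjusted p = 0.0542 and 0.142).

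Of 25 genes of gluconeogenesis and its control by CREB, 14 were called lower and 2 higher, with a median of -0.33. G6pc, the catalytic subunit of glucose-6-phosphatase, stood at 389 to 611 CPM (median 502) in fasted and 109 to 271 CPM (median 183) in refed mice without overlap (log2 -1.47 ± 0.16; edgeR, adjusted p = 3.91e-05). Pck1, the cytosolic phosphoenolpyruvate carboxykinase, stood at 4156 to 6413 CPM (median 5244) in fasted and 1445 to 3556 CPM (median 2565) in refed mice (log2 -1.08 ± 0.22). Ppargc1a, the coactivator PGC1α, went from a median of 9.67 to 5.49 CPM (log2 -0.81 ± 0.13), and Pde4d, a cAMP phosphodiesterase, fell with it (log2 -1.30 ± 0.16). The 2 members called higher were Mpc2, a subunit of the mitochondrial pyruvate carrier (log2 0.25 ± 0.07), and Slc37a4, the glucose-6-phosphate transporter (log2 0.25 ± 0.07). Of 16 glycogen genes (18 listed), 5 were called higher and 4 lower. These were 31.2% and 25%, against 19.3% and 18.3% over all genes tested. Ppp1r3b, which brings protein phosphatase 1 to glycogen, rose by 1.39 ± 0.24 log2 units. Pgm2 fell by 0.30 ± 0.06 log2 units.

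Among 25 genes of insulin signalling and FOXO1 targets, 13 were called lower and 3 higher, with a median of -0.20. Igfbp1, a secreted binding protein that insulin represses, stood at 30 to 71.0 CPM (median 49.5) in fasted mice and at 3.70 to 11.1 CPM (median 6.11) in refed mice, and the groups did not overlap (log2 -2.80 ± 0.33). Irs2, the insulin receptor substrate that FOXO1 induces, stood at 11.6 to 23.6 CPM (median 16.9) in fasted and 4.74 to 9.30 CPM (median 6.53) in refed mice (log2 -1.41 ± 0.14). Irs1 (log2 -0.71 ± 0.09), the receptor gene Insr (log2 -0.38 ± 0.06) and Trib3, a pseudokinase that binds AKT (log2 -1.11 ± 0.14), fell too. The 3 genes that rose were Pik3r1 (log2 0.43 ± 0.07), its paralogue Pik3r3 (log2 0.69 ± 0.19) and Ppp1r3b. Pik3r1, the gene that carries the truncation in the other genotype, stood at 82.4 to 105 CPM (median 94.2) in fasted and at 116 to 139 CPM (median 123) in refed wild-type mice. Of 26 genes of the mTOR complexes and their nutrient brakes, 10 were called lower (38.5%, against 18.3% over all genes tested). Among them were Mtor (log2 -0.43 ± 0.07), Rictor (log2 -0.30 ± 0.08), the translational repressor Eif4ebp2 (log2 -0.55 ± 0.10) and Fnip1 (log2 -0.47 ± 0.08). Another 4 were called higher (15.4%, near the 19.3% over all genes tested).

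**Figure D3:**
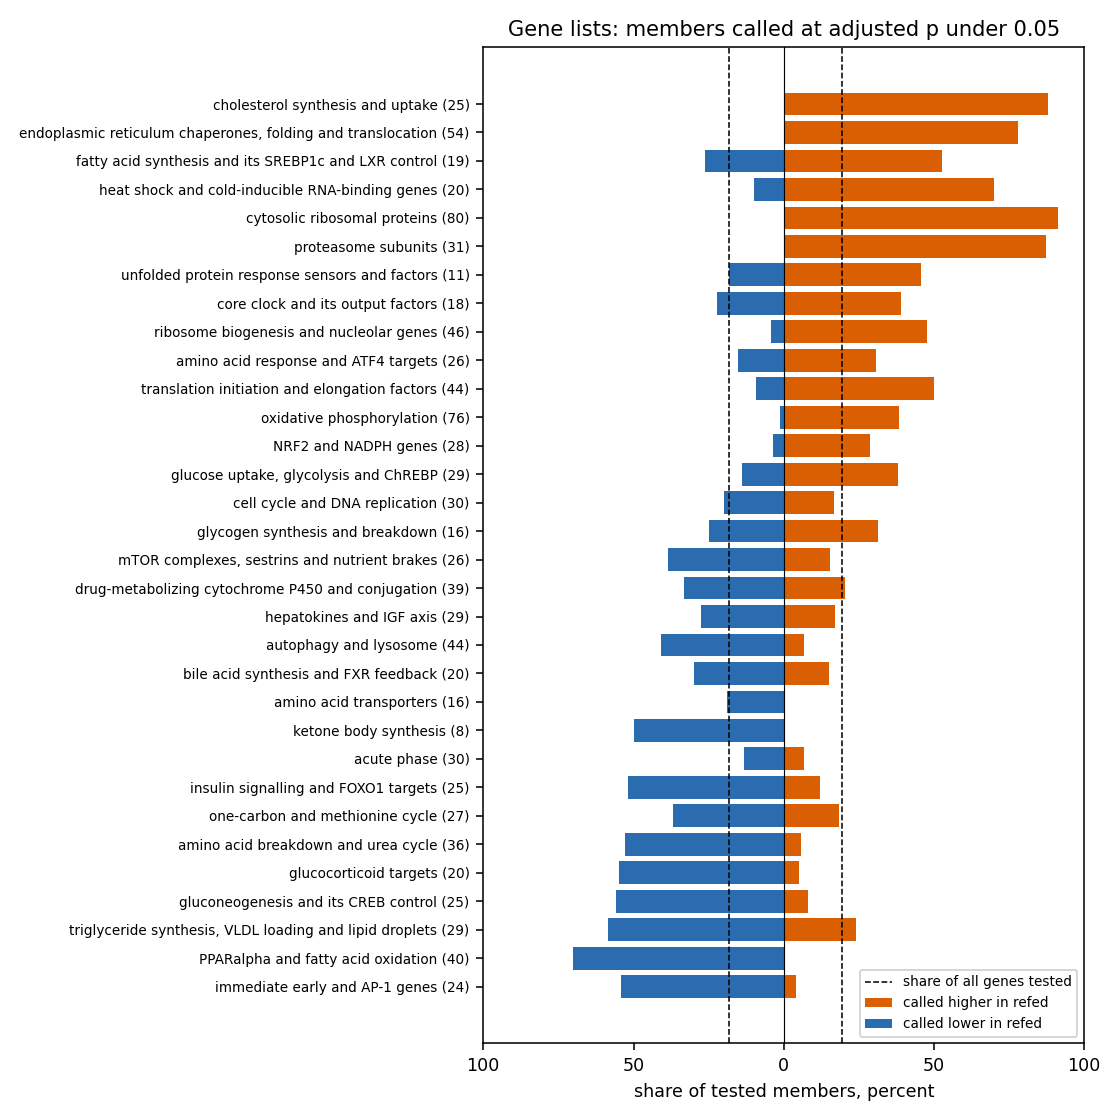
Share of tested members (percent, horizontal axis) called higher (orange, to the right) or lower (blue, to the left) at an adjusted p under 0.05 for 32 gene lists, ordered by median log2 fold change with the number tested in brackets. The dashed lines mark the shares over all 13033 genes, 19.3% higher and 18.3% lower. Cholesterol genes, ER chaperones, ribosomal proteins and proteasome subunits have no member called lower, and the fatty acid oxidation list has none called higher.

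Genes of fatty acid oxidation under PPARα fell, with 28 of 40 members called lower, none called higher and a median of -0.46, and 28 were called lower without mice ONF_WT_807 and RF6_WT_828 as well. Cpt1a, which admits long-chain fatty acids to mitochondria, stood at 863 to 1052 CPM (median 940.4) in fasted and 437 to 537 CPM (median 514) in refed mice without overlap (log2 -0.93 ± 0.07; edgeR, adjusted p = 2.22e-09). Fed mice stood lower still, at 295 to 349 CPM (median 306). The carnitine transporter Slc22a5 stood at 74.7 to 105 CPM (median 84.6) in fasted and 23.98 to 35.2 CPM (median 29.5) in refed mice (log2 -1.53 ± 0.08), and the acylcarnitine carrier Slc25a20 fell by 0.72 ± 0.06 log2 units. Pdk4, which shuts off pyruvate dehydrogenase, stood at 9.94 to 36.8 CPM (median 17.3) in fasted and 2.47 to 3.89 CPM (median 2.92) in refed mice (log2 -2.63 ± 0.27), Angptl4, an inhibitor of lipoprotein lipase, fell by 1.46 ± 0.22 log2 units and Ppara itself by 0.48 ± 0.07. For 25 of the 28 members called lower, the refed median remained above all 6 fed mice.

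Ketone body genes fell in part, with 4 of 8 called lower and none higher. Slc16a1, a monocarboxylate transporter, fell by 1.31 ± 0.11 log2 units. Fgf21, a hepatokine of fasting, was not called (log2 -1.04 ± 0.67; edgeR, adjusted p = 0.261). It stood at 6.74 to 13.1 CPM (median 11.3) in fasted mice and at 1.75 to 2.93 CPM in 5 refed mice, while refed mouse RF6_WT_900 held 22.6 CPM. Without mouse RF6_WT_900 the log2 fold change was -2.22 and Fgf21 was called (edgeR, adjusted p = 2.54e-08), and in the low series alone it was -2.32 (adjusted p = 1.49e-05).

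Of 29 genes of triglyceride synthesis, VLDL loading and lipid droplets (30 listed), 17 were called lower and 7 higher, with a median of -0.35. Plin2, the main coat protein of hepatic lipid droplets, stood at 1073 to 1509 CPM (median 1185) in fasted and 328 to 424 CPM (median 353) in refed mice without overlap (log2 -1.76 ± 0.08; edgeR, adjusted p = 1.31e-11). Plin4, another perilipin, stood at 49.4 to 116 CPM (median 68.2) in fasted and 6.89 to 12.5 CPM (median 10.2) in refed mice (log2 -2.85 ± 0.21). Gpat4, a glycerol-3-phosphate acyltransferase deposited as Agpat6, stood at 323 to 445 CPM (median 345) in fasted and 126 to 173 CPM (median 145) in refed mice (log2 -1.28 ± 0.08), and Pnpla2, adipose triglyceride lipase, fell by 0.93 ± 0.06 log2 units. Against these, Dgat2, the last step of triglyceride synthesis, rose by 0.57 ± 0.08 log2 units, Lpin1, a phosphatidate phosphatase, by 0.90 ± 0.16 and Apoa4, an apolipoprotein, by 1.31 ± 0.35. The groups overlapped for Apoa4. Its call was lost in fits of 24 and 36 libraries of both genotypes (edgeR, adjusted p = 0.13 and 0.0633) and in the low and high series alone (0.201 and 0.0769). Elovl3, which makes very long-chain fatty acids and stood in no list, stood at 183 to 301 CPM (median 263) in fasted and 13.9 to 50.8 CPM (median 34.8) in refed mice (log2 -2.87 ± 0.28). Pnpla3 did not pass the filter on low counts, at 0.0701 to 1.16 CPM (median 0.483) in fasted and 0.202 to 1.75 CPM (median 0.276) in refed mice.

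Genes of amino acid breakdown and the urea cycle fell more often than they rose, with 19 of 36 called lower, 2 higher (Glud1, log2 0.33 ± 0.11, and Nags, log2 0.19 ± 0.07) and a median of -0.27. The call was lost in 8 of 26 alternatives for Glud1 and in 7 for Nags, among them fits without single mice. Got1, cytosolic aspartate aminotransferase, stood at 176 to 243 CPM (median 212) in fasted and 45.4 to 78.8 CPM (median 62.0) in refed mice (log2 -1.79 ± 0.14). Aass, of lysine breakdown, fell by 0.69 ± 0.09 log2 units and Cbs, cystathionine β-synthase, by 0.50 ± 0.07. Among 16 amino acid transporters, 3 were called lower (18.8%, near the 18.3% over all genes tested) and none higher, and without mice ONF_WT_807 and RF6_WT_828 the counts were 6 lower and 1 higher. The 3 were the cationic transporter Slc7a2 (log2 -1.41 ± 0.14), Slc38a4 (log2 -0.45 ± 0.07) and Slc43a2 (log2 -0.57 ± 0.16). Slc7a2 stood at 737 to 1301 CPM (median 925) in fasted and 254 to 429 CPM (median 361) in refed mice.

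Of 26 targets of ATF4 and the amino acid response (31 listed), 8 were called higher and 4 lower. The share called higher was 30.8%, against 19.3% over all genes tested. The share called lower, 15.4%, was near the 18.3% over all genes tested. The tryptophanyl- and alanyl-tRNA synthetases Wars (log2 0.71 ± 0.10) and Aars (log2 0.41 ± 0.07) rose. Asns, asparagine synthetase, was not called (log2 2.11 ± 0.85; edgeR, adjusted p = 0.0799), and refed mice ranged from 0.720 to 13.4 CPM (median 2.34). Of 27 genes of one-carbon metabolism, the methionine cycle and polyamines (29 listed), 10 were called lower and 5 higher (9 with library size scaling). The share called higher, 18.5%, was near the 19.3% over all genes tested. The polyamine enzymes Odc1 (log2 1.02 ± 0.08) and Srm (log2 1.25 ± 0.10) rose without overlap.

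Genes of ER protein folding and translocation rose together, with 42 of 54 members called higher, none lower and a median of 0.49. Hyou1, an ER chaperone of the HSP110 family, stood at 122 to 158 CPM (median 145) in fasted and 394 to 540.5 CPM (median 466) in refed mice without overlap (log2 1.73 ± 0.08; edgeR, adjusted p = 1.31e-11). Hspa5, the chaperone BiP, stood at 531 to 821 CPM (median 666) in fasted and 1224 to 1638 CPM (median 1485) in refed mice (log2 1.13 ± 0.10), Calr, calreticulin, at 421 to 558 CPM (median 478) in fasted and 1033 to 1248 CPM (median 1162) in refed mice (log2 1.24 ± 0.07) and Pdia6, a disulfide isomerase, at 118 to 167 CPM (median 129) in fasted and 302 to 359 CPM (median 324) in refed mice (log2 1.28 ± 0.08). Larger log2 fold changes were those of the co-chaperone gene Sdf2l1 (log2 2.58 ± 0.19), Creld2 (log2 1.94 ± 0.10) and Manf (log2 1.89 ± 0.10). Of the genes of translocation into the ER, Sec61a1 rose by 0.51 ± 0.07 and Ssr1 by 0.74 ± 0.06 log2 units. The refed median lay within the range of the fed mice for 20 of the 42 and below all fed mice for 21. Without mice ONF_WT_807 and RF6_WT_828, 46 of the 54 were called higher.

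The ER stress response element joins CCAAT and CCACG across a spacer of fixed length and is bound by NF-Y together with ATF6 or XBP1. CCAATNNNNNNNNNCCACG was found upstream of 16 of the 9910 genes with a promoter (0.161%), and 9 of these 16 stood among the 42 ER folding genes with a promoter. All 9 were called higher, in a list of which 42 of 54 members (77.8%) were called higher. Of the rest of the 16, Xlr3a was called higher and Acacb lower, and the others are not reported here. The stretches of the 9 are shown because their genes moved together, read along the strand of the gene, with the element or its reverse complement in capitals.
Hspa5: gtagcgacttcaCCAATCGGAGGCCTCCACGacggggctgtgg
Calr: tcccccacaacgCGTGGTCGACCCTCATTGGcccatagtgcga
Pdia6: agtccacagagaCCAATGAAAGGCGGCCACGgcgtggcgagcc
Creld2: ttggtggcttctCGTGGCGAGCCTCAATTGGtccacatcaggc
Derl3: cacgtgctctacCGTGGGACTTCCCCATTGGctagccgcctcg
Dnajc3: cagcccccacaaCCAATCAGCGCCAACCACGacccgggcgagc
Syvn1: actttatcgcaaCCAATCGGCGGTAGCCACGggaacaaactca
Canx: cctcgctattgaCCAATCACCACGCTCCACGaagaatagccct
Hsp90b1: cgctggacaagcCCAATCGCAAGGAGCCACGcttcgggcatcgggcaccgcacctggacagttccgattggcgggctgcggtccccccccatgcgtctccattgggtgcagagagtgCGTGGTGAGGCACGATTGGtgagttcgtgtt
The stretches lie on GRCm38.p6 at chr2:34772013-34772055 (plus strand) for Hspa5, chr8:84847063-84847105 (minus) for Calr, chr12:17266479-17266521 (plus) for Pdia6, chr15:88819508-88819550 (plus) for Creld2, chr10:75893230-75893272 (plus) for Derl3, chr14:118937815-118937857 (plus) for Dnajc3, chr19:6046520-6046562 (plus) for Syvn1, chr11:50325788-50325830 (minus) for Canx and chr10:86705521-86705668 (minus) for Hsp90b1. The genes that carry the element spanned small and large changes. Derl3, of ER-associated degradation, rose by 2.34 ± 0.70 log2 units, Hsp90b1, the chaperone GRP94 that alone holds 2 copies, by 1.12 ± 0.08 and the co-chaperone gene Dnajc3 by 0.60 ± 0.07. Syvn1, a ubiquitin ligase of the ER, rose by 0.51 ± 0.13 log2 units and Canx, calnexin, by 0.30 ± 0.07. The call for Derl3, at a median of 0.925 CPM in fasted mice, was lost when any of 5 mice was left out (adjusted p up to 0.0784). Sdf2l1 does not have these letters in its window. Hyou1 and Manf had no promoter among those searched, so that nothing can be said of the element for them.

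Sensors and factors of the unfolded protein response had a median of 0.30, with 5 of 11 called higher (12 listed) and 2 lower (Creb3l3, log2 -0.41 ± 0.07, and Mbtps1, log2 -0.19 ± 0.05). Their share called lower, 18.2%, was near the 18.3% over all genes tested. Xbp1 stood at 139 to 164 CPM (median 154) in fasted and 229 to 265 CPM (median 237) in refed mice (log2 0.67 ± 0.06), and Ern1, the sensor IRE1α, rose by 0.45 ± 0.08 log2 units. Atf6 was not called (log2 -0.02 ± 0.07). Splicing of Xbp1 is not measured by counts per gene. Chaperones of the cytosol and mitochondria rose as well, with 14 of 20 heat shock and cold-inducible genes called higher (21 listed) and 2 lower. Hsp90aa1 rose by 1.14 ± 0.17 log2 units, the co-chaperones Stip1 by 0.97 ± 0.10 and Fkbp4 by 0.89 ± 0.07 and the mitochondrial chaperonin Hspe1 by 0.93 ± 0.09. The 2 members called lower were the cold-inducible Cirbp (log2 -0.57 ± 0.11) and Hspa1b (log2 -1.49 ± 0.45), whose call was lost without mice ONF_WT_807 and RF6_WT_828 (edgeR, adjusted p = 0.0916). Rbm3, the other cold-inducible RNA-binding gene, rose by 0.48 ± 0.09 log2 units.

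Of 80 cytosolic ribosomal protein genes, 73 were called higher, none lower and none changed by as much as 2-fold, with a median of 0.36. Rps15a stood at 42.1 to 51.3 CPM (median 44.1) in fasted and 61.2 to 83.8 CPM (median 70.2) in refed mice (log2 0.64 ± 0.07) and Rpl12 rose by 0.83 ± 0.09 log2 units. Many ribosomal protein genes have near-identical pseudogenes, so that how reads were assigned among copies is uncertain. Without mice ONF_WT_807 and RF6_WT_828, 67 of the 80 were called higher. Of 46 ribosome biogenesis genes, 22 were called higher, among them the snoRNP protein genes Nop56 (log2 0.74 ± 0.11) and Rrp9 (log2 0.80 ± 0.12), and 2 lower, the ribosomal DNA factor Ubtf (log2 -0.43 ± 0.06) and nucleolin, Ncl (log2 -0.28 ± 0.07). Of 44 translation factors, 22 were called higher, among them Eif2s1 (log2 0.66 ± 0.06) and Eif2b3 (log2 0.95 ± 0.12), and 4 lower, among them Eif4b (log2 -0.53 ± 0.07). Of 31 proteasome subunits, 27 were called higher and none lower, with a median of 0.35. Psmd14 rose by 0.63 ± 0.07 log2 units, Psma1 by 0.56 ± 0.07 and Psmc4 by 0.48 ± 0.06, and for all 27 the refed median lay above all 6 fed mice. Of 76 oxidative phosphorylation genes, 29 were called higher (21 without mice ONF_WT_807 and RF6_WT_828) and 1 lower (Sdha, log2 -0.21 ± 0.07), with a median of 0.15. The call for Sdha was lost in 11 of 26 alternatives, among them library size scaling (edgeR, adjusted p = 0.162). Cycs, cytochrome c, rose by 0.58 ± 0.08 log2 units, Ndufb10 by 0.39 ± 0.07 and Uqcr10 by 0.35 ± 0.07.

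Gene length moved with the fold change over all genes. The median log2 fold change was 0.12 in the fifth of genes with the shortest exons and -0.09 in the fifth with the longest. The median exon length was 1776 bases for ribosomal protein genes, 1737 for oxidative phosphorylation genes and 2808 for proteasome subunits, against 4339 over the genes with a length. With an offset for length and GC content, 69 of 80 ribosomal protein genes, 25 of 31 proteasome subunits and 17 of 76 oxidative phosphorylation genes were called higher, with medians of 0.28, 0.35 and 0.06. The oxidative phosphorylation count therefore depended on this step, and with library size scaling it was 53. The offset left the cholesterol and ER folding counts at 22 and 42.

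Autophagy and lysosome genes fell more often than they rose, with 18 of 44 called lower and 3 higher (Uvrag, log2 0.35, Atg16l1, log2 0.22, and Atg13, log2 0.26), and a median of -0.13. With library size scaling 6 were called higher. Gabarapl1 (log2 -0.89 ± 0.08) and Map1lc3b (log2 -0.54 ± 0.06), which encode ATG8-family proteins of the autophagosome, and Atg2a (log2 -0.81 ± 0.07), a lipid transfer protein, fell without overlap between the groups. Gabarapl1 stood at 379.6 to 459 CPM (median 413) in fasted and 190.4 to 262 CPM (median 228) in refed mice.

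The largest falls of all genes tested were those of the metallothioneins, metal-binding proteins that glucocorticoids and zinc induce. Mt2 stood at 3.61 to 36.1 CPM (median 18.2) in fasted and 0.235 to 0.590 CPM (median 0.349) in refed mice (log2 -5.56 ± 0.78; edgeR, adjusted p = 0.000419) and Mt1 at 22.7 to 139 CPM (median 73.7) in fasted and 2.07 to 5.6 CPM (median 3.99) in refed mice (log2 -4.31 ± 0.50). Among fed mice Mt1 was split, with 266 and 271 CPM in mice ALC_WT_847 and ALC_WT_849 and 2.05 to 5.85 CPM in the other 4. The same 2 mice held the most of 2 acute-phase genes. Saa1 stood at 3990.5 and 3396 CPM in them and at 235 to 1456 CPM in the other 4. Fga stood at 11007 and 10444 CPM in them and at 4787 to 6080 CPM in the other 4. Of 20 glucocorticoid targets, 11 were called lower and 1 higher (Ddit4, log2 0.81 ± 0.21). The call for Ddit4 was lost in fits of 24 and 36 libraries of both genotypes (edgeR, adjusted p = 0.281 and 0.31). It was also lost in the low series alone (edgeR, adjusted p = 0.413). Klf9, a transcription factor of this list, fell by 0.57 ± 0.08 log2 units. Of 24 immediate early and AP-1 genes (30 listed), 13 were called lower and 1 higher. Egr1 stood at 3.65 to 15.8 CPM (median 5.79) in fasted and 0.617 to 2.87 CPM (median 1.67) in refed mice (log2 -2.15 ± 0.23), Fos fell by 2.07 ± 0.29 log2 units, the anti-proliferative gene Btg1 by 0.91 ± 0.08, Jun by 0.98 ± 0.17 and Junb by 1.31 ± 0.30. The member that rose was the growth arrest gene Gadd45a, at 1.12 to 2.07 CPM (median 1.73) in fasted and 4.57 to 12.5 CPM (median 5.22) in refed mice (log2 1.95 ± 0.24). Myc was not called (log2 -0.08 ± 0.43), with 11.3 CPM in refed mouse RF6_WT_828 against 1.55 to 3.62 CPM in the other 5, and Mycn did not pass the filter on low counts. Npnt, a matrix protein gene, fell by 2.89 ± 0.37 log2 units from a median of 1.92 to 0.254 CPM and Cdkn1a, the cell cycle inhibitor p21, by 2.28 ± 0.46.

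Some clock genes differed between the groups as well. Of 18 core clock and output genes (19 listed), 7 were called higher (38.9%, against 19.3% over all genes tested). Another 4 were called lower (22.2%, near the 18.3% over all genes tested). Arntl, which encodes the activator BMAL1, stood at 6.65 to 24.2 CPM (median 14.1) in fasted and 1.42 to 4.39 CPM (median 3.50) in refed mice (log2 -2.08 ± 0.28), and its partner Clock fell by 0.73 ± 0.09 log2 units. The repressor gene Per2 stood at 4.42 to 16.5 CPM (median 12.3) in fasted and 33.3 to 47.1 CPM (median 43.1) in refed mice (log2 1.90 ± 0.22), and the output factor Dbp at 3.72 to 42.4 CPM (median 23.04) in fasted and 44.2 to 65.2 CPM (median 53.7) in refed mice (log2 1.52 ± 0.43). The repressor gene Ciart, deposited as Gm129, stood at 0.280 to 5.36 CPM (median 1.62) in fasted and 11.5 to 17.9 CPM (median 12.2) in refed mice (log2 2.63 ± 0.42), and Per3 rose by 1.98 ± 0.36 log2 units. Per1 (log2 0.42 ± 0.18) and Nr1d1, which encodes REV-ERBα (log2 -0.38 ± 0.18), were not called. The E-box CACGTG, which BMAL1 and CLOCK bind, was found upstream of 5 of 15 clock genes with a promoter and of 990 of all 9910 (9.99%). Ciart holds 3 copies, shown in capitals at chr3:95882255-95882356 on the minus strand of GRCm38.p6, 27 to 128 bases upstream of the start.
Ciart: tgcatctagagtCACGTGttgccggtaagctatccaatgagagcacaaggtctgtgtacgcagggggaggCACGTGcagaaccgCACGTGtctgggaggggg
The part of time of day in these differences, and in any other gene under the clock, cannot be told apart from feeding.

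Among secreted regulators, 5 of 29 hepatokine and IGF axis genes were called higher (17.2%, near the 19.3% over all genes tested) and 8 lower (27.6%, against 18.3%; 31 listed). Igfals, the subunit that stabilises IGF1 in plasma, rose by 0.58 ± 0.07 log2 units and Inhba, of activin A, by 1.29 ± 0.17. Angptl8, a feeding-induced regulator of lipoprotein lipase, rose by 2.02 ± 0.40. The groups overlapped for Angptl8, with 38.3 CPM in refed mouse RF6_WT_828 and 39.96 CPM in fasted mouse ONF_WT_919. Its call was lost in the low series alone (edgeR, adjusted p = 0.119). Fst, the activin antagonist follistatin, stood at 1.86 to 5.84 CPM (median 2.55) in fasted and 0.176 to 1.03 CPM (median 0.511) in refed mice (log2 -2.47 ± 0.37). Hamp2, a hepcidin gene, fell by 2.02 ± 0.66 log2 units with a call that was lost when any of 10 single mice was left out. Of 20 bile acid genes (21 listed), 6 were called lower, among them the phospholipid exporter Abcb4 (log2 -0.72 ± 0.07), the bile acid ligase Slc27a5 (log2 -0.58 ± 0.07), Klb (log2 -0.53 ± 0.07) and the 12α-hydroxylase Cyp8b1 (log2 -1.37 ± 0.21). Cyp7a1, the rate-limiting enzyme of bile acid synthesis, was 1 of 3 members called higher (log2 1.22 ± 0.40; edgeR, adjusted p = 0.0382), at 65.0 to 117 CPM (median 94.8) in fasted and 80.6 to 403 CPM (median 164) in refed mice with overlap. The call was lost in 8 of the 12 fits that left out 1 mouse. With library size scaling 5 members were called higher. In the main fit the share of bile acid genes called higher, 15%, was near the 19.3% over all genes tested, and 30% were called lower.

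Of 30 acute phase genes, 4 were called lower, namely Stat3 (log2 -0.31) and the fibrinogen genes Fga (log2 -0.61 ± 0.12), Fgb (log2 -0.56 ± 0.11) and Fgg (log2 -0.59 ± 0.11), and 2 higher, Steap4 (log2 0.88) and Apcs (log2 0.75). The call for Apcs was lost in 16 of 26 alternatives, 10 of them fits without 1 mouse, and that for Stat3 in 8. Fga was highest in mouse ONF_WT_807 among fasted mice (6533 CPM) and in mouse RF6_WT_828 among refed mice (3817 CPM). Without those 2 mice, 4 acute phase genes were called higher and 9 lower. Of 28 NRF2 and NADPH genes, 8 were called higher, among them Prdx1 (log2 0.45 ± 0.06), Gsr (log2 0.36 ± 0.07) and Pgd (log2 0.39 ± 0.10), and 1 lower, catalase, Cat (log2 -0.30 ± 0.08). Of 30 cell cycle genes (33 listed), 5 were called higher, among them the replicative helicase gene Mcm6 (log2 0.79 ± 0.16), and 6 lower, among them Ccnd3 (log2 -0.72 ± 0.10) and E2f8 (log2 -0.86 ± 0.16). Of 39 cytochrome P450 and conjugation genes (41 listed), 8 were called higher, among them Ugt2b34 (log2 0.56 ± 0.08) and Ugt2b35 (log2 0.57 ± 0.08), and 13 lower, among them Sult1d1 (log2 -0.72 ± 0.09) and Cyp2b9 (log2 -3.69 ± 1.06). With the length and GC offset 4 were called higher. Cyp2b9 stood at 1.61 to 75.0 CPM (median 13.7) in fasted mice, with 75.0 CPM in mouse ONF_WT_825, and its call was lost by limma-voom (adjusted p = 0.167), in each series alone and without refed mouse RF6_WT_815 (edgeR, adjusted p = 0.0508). These are multigene families whose reads may be shared. The cell cycle shares of 16.7% higher and 20% lower were near those over all genes tested, 19.3% and 18.3%. The share of P450 and conjugation genes called higher, 20.5%, was near it too, and 33.3% were called lower. The acute phase shares of 6.67% higher and 13.3% lower were below those over all genes tested.

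The tissue was checked against marker lists. The 10 hepatocyte markers summed to 100900 to 120000 CPM in fasted and 87470 to 108700 CPM in refed mice, and 4 of them were called lower and none higher. Of 13 endothelial markers, 9 were called lower (5 with library size scaling and 5 with the length and GC offset) and none higher, with summed levels of 604 to 666 CPM in fasted and 478 to 610 CPM in refed mice. Of 13 stellate cell and fibroblast markers, 6 were called lower and 1 higher (Lrat, log2 0.78 ± 0.10), with sums of 500 to 598 and 447 to 597 CPM. None of 13 Kupffer cell markers was called. Of the other lists, 1 of 4 cholangiocyte and 1 of 3 neutrophil markers tested were called lower, and none of the lymphocyte, red cell, acinar or adipocyte markers were called. The neutrophil sum was 3.64 to 25.6 CPM in refed mice and 3.36 to 7.43 CPM in fasted mice, and Ly6g was at 0 in all 12. In these bulk samples fewer cells of a type and less RNA per cell cannot be told apart, and the part of either in the other results was not tested.

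The 2 number series were next compared, each with 3 fasted and 3 refed mice. The response differed by series in 9 genes (0.0691% of 13033; 1134 at an unadjusted p under 0.05). The count was 3 without mouse ONF_WT_824 or RF6_WT_896, 5 without mouse ONF_WT_919 or RF6_WT_900 and 21 without mouse RF6_WT_815. The 9 genes were Got1, Stard4, Glcci1, Pfkfb1, Gpr146, Aldoc, Baiap2, Cdkn1a and Ciart. Stard4 rose by 2.04 ± 0.11 log2 units in the low series and by 1.02 ± 0.10 in the high series, a difference of 1.02 ± 0.15 (edgeR, adjusted p = 0.00585). Got1 fell by 1.36 ± 0.10 and 2.21 ± 0.08 log2 units respectively. Glcci1, a glucocorticoid-induced transcript, stood at a log2 fold change of -1.02 ± 0.29 in the low and 1.53 ± 0.25 in the high series. Pfkfb1, the liver isoform of phosphofructokinase 2, rose in the low series (log2 1.06 ± 0.14) and stood at log2 -0.00073 ± 0.11 in the high series. Gpr146, an orphan receptor gene, stood at log2 fold changes of 0.35 ± 0.08 in the low and -0.30 ± 0.07 in the high series, the brain-type aldolase gene Aldoc at 1.81 ± 0.22 and -0.21 ± 0.23 and the adaptor gene Baiap2 at -0.25 ± 0.10 and 0.55 ± 0.10.

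In all 25 cholesterol genes the log2 fold change was larger in the low series, with medians of 2.595 and 1.225, and 1 of them, Stard4, passed the test of the difference. The same 3 refed mice enter each of these values, so that the 25 genes do not count as separate observations. Mvd stood at 42.1, 97.4 and 53.9 CPM in the refed mice of the low series and at 26.2, 15.96 and 24.2 CPM in those of the high series. The mean of the refed mice was above the fed median for 24 of the 25 genes in the low series and for 7 in the high series. Among the clock genes, Dbp stood at 3.72, 6.22 and 13.1 CPM in the fasted mice of the low series and at 42.0, 42.4 and 32.95 CPM in those of the high series. Cdkn1a stood at 5.68, 7.37 and 4.42 CPM against 0.951, 1.23 and 1.31 CPM. All 80 ribosomal protein genes had the larger log2 fold change in the low series too, with medians of 0.50 and 0.23, none past the test. Of the 76 oxidative phosphorylation genes 67 did, with medians of 0.24 and 0.06, none past the test, and 23 were called higher in the low series alone against 3 in the high series alone. What sets the series apart is not stated by the labels.

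**Figure D4:**
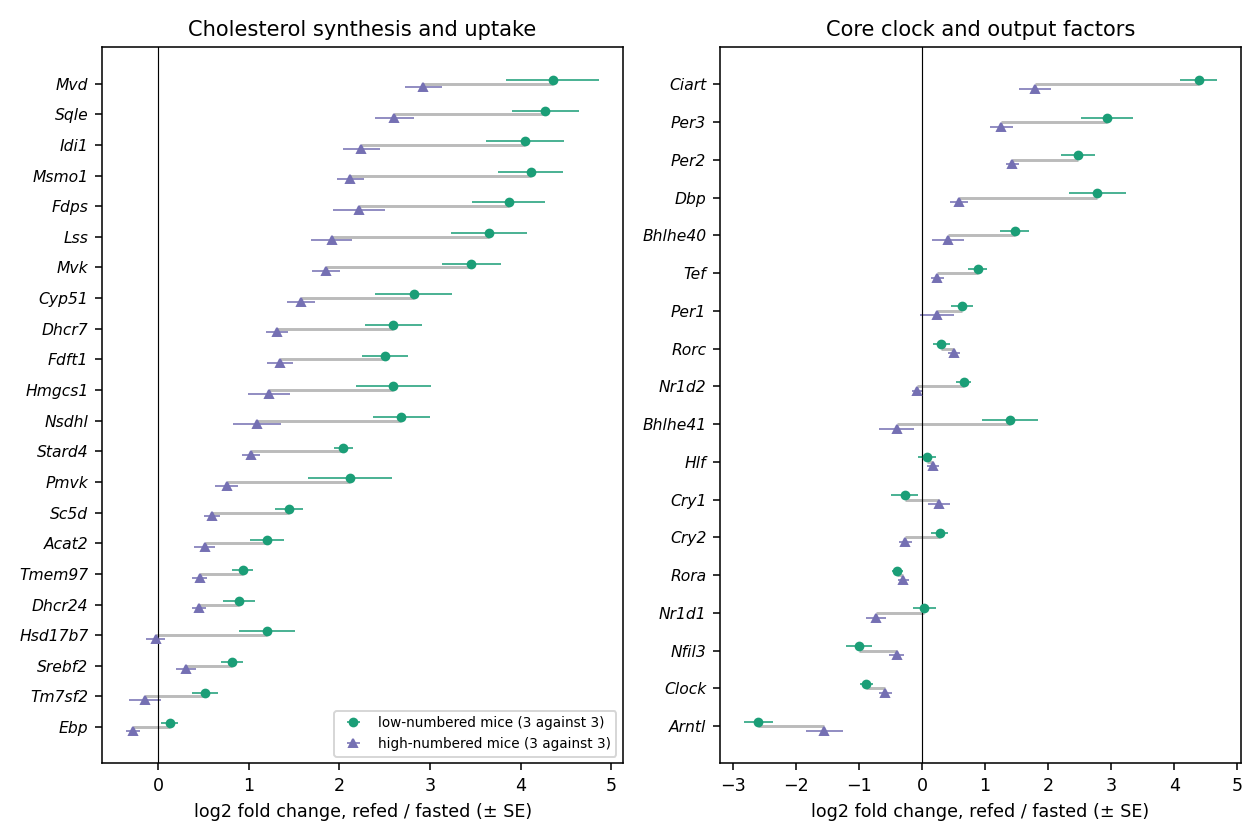
Log2 fold change (refed over fasted, horizontal axis, with standard errors) of 22 of the 25 cholesterol genes (left) and clock genes (right), fitted in the low-numbered mice (green circles) and the high-numbered mice (purple triangles), each with 3 mice against 3. Every cholesterol gene shown lies further right in the low-numbered mice, and Ciart lies at 4.39 ± 0.29 and 1.79 ± 0.25 in the 2 series.

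The wild-type response was set beside that of mice heterozygous for Pik3r1 Y657*, which shared no library with it, in 1 fit of 24 libraries and 13604 genes. That fit called 4364 genes (32.1%) in wild-type and 4435 (32.6%) in mutant mice. The responses had a Pearson r of 0.67 across genes, which do not count as replicates. The response differed by genotype in 308 genes (2.26% of those tested; 2245 at an unadjusted p under 0.05), in 204 of them with the more positive change in wild type (1.5%). None of the 25 cholesterol genes, the 40 fatty acid oxidation genes or the 20 fatty acid synthesis genes was among them. Their medians were 1.92, -0.45 and 0.32 in wild-type and 2.05, -0.31 and 0.41 in mutant mice. Of the insulin signalling genes, Irs1 and Trib1 differed, with Irs1 at -0.70 in wild-type and -0.15 in mutant mice (difference -0.55 ± 0.15; edgeR, adjusted p = 0.0448). A p that misses the threshold does not show that the responses were alike.

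Among the lists, ribosomal protein genes held the largest share of genes that differed, 29 of 80, all with the more positive change in wild type, and the medians were 0.36 in wild-type and -0.01 in mutant mice. Rps15a stood at log2 fold changes of 0.65 and 0.01 (difference 0.64 ± 0.13; edgeR, adjusted p = 0.0126). Of the 76 oxidative phosphorylation genes 15 differed, all in the same direction, with medians of 0.15 and -0.02. With the offset for length and GC content, 148 genes differed in all, 22 of them ribosomal protein genes and 8 of oxidative phosphorylation. The count over all genes fell to between 156 and 205 when any of the wild-type mice ONF_WT_807, ONF_WT_824, ONF_WT_825, RF6_WT_828, RF6_WT_901 and ONF_WT_919 or the mutant mice ONF_MT_806, RF6_MT_814, RF6_MT_817 and ONF_MT_923 was left out. The 5 genes with the smallest p were the splicing kinase gene Clk1 (log2 0.08 in wild-type and -0.59 in mutant mice), Gm16573 (log2 0.58 and -0.86), the small nucleolar RNAs SNORA63 (log2 0.27 and -0.97) and SNORA14 (log2 0.52 and -0.96) and the deubiquitinase gene Yod1 (log2 0.40 and -0.63). Of 52 small nucleolar RNAs tested, 19 differed by genotype, and 252 of 12410 protein-coding genes did.

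**Figure D5:**
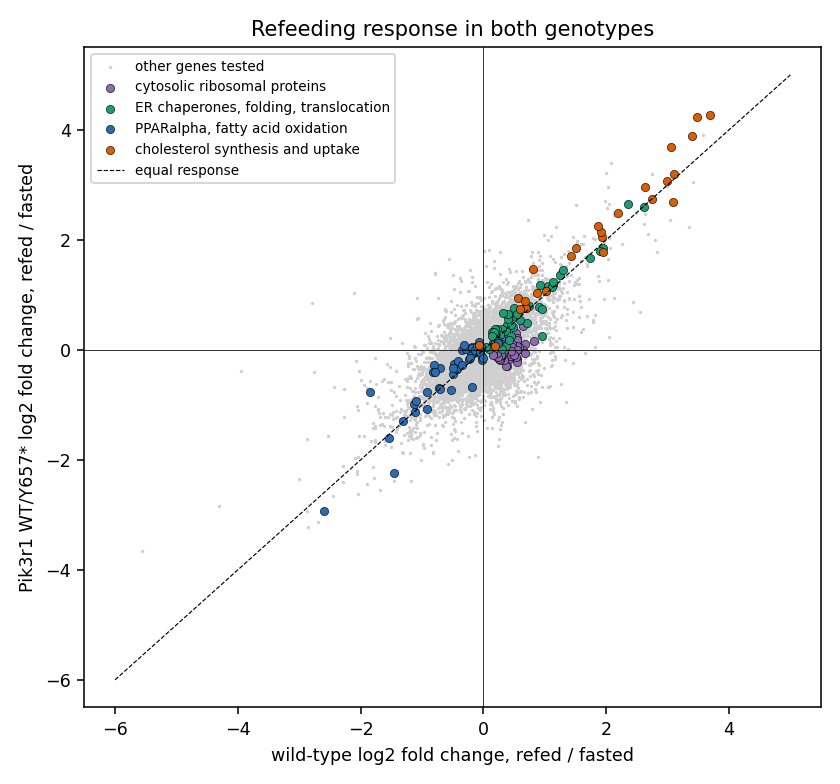
Log2 fold change (refed over fasted) of each gene in wild-type mice (horizontal axis) and in Pik3r1 WT/Y657* mice (vertical axis), from 1 fit of 24 libraries, with 4 lists coloured and the dashed line marking equal responses. Ribosomal protein genes lie mostly to the right of the line, with medians of 0.36 and -0.01, while none of the cholesterol or fatty acid oxidation genes and 1 of the 54 ER folding genes differed by genotype.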

How the data were processed

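RNA was extracted from liver with RNeasy columns, and libraries were made with the TruSeq Stranded total RNA kit and read as 50-base single ends on a HiSeq 4000, per the labels. The authors deposited estimated counts per gene for 36 libraries; the submitters' processing notes name featureCounts, SAMtools, Cuffdiff and edgeR, and the settings of the assignment to genes are not given in the sources used here. Of counts above 0, 3.29% were not whole, and all were rounded. The notes name mm9, but 99.66% of the loci in the table overlapped the same gene in GRCm38, so coordinates are given only for RefSeq promoters of GRCm38.p6. Some genes carry older names in the table, and current names are used.

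Genes were kept by edgeR's filterByExpr (13033 of 38283), scaled by trimmed means (TMM) and tested with the quasi-likelihood F test of edgeR 4.0.16 (R 4.3.3) with the mouse number series as a block, over the 12 wild-type fasted and refed libraries. Benjamini-Hochberg adjustment ran over all genes tested. The biological coefficient of variation was 0.133. Differences by series were tested as an interaction in the same libraries, and differences by genotype as an interaction in 24 libraries. CPM used TMM-scaled library sizes. In counts simulated from these libraries, 12866 genes were tested, of which 65, 66 and 66 were changed by 0.5, 1 and 2 log2 units. The test recovered 55.4%, 81.8% and 97% of them respectively, and 5 of 159 calls were false. A far larger share, 37.6% of genes tested, was called in the real data, so that these rates need not hold there.

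Named genes were the 12 with the largest rise and fall among called genes with a mean of at least 1 CPM and no overlap, the 3 called members of each list with the smallest p, a set of switch genes and the 5 genes with the smallest p for each interaction. Some genes that these rules name are not reported here. Others were named after their values were seen, among them the single members that went against their list. The members, the gene lists and these rules were chosen with earlier results of these data known. Alternatives were limma-voom (limma 3.58.1), DESeq2 1.42.0, a likelihood ratio test, other scaling and filters, each series alone and each mouse left out. Whether mice of a group came from separate litters is not stated. The tests took each mouse as independent and set each difference against the spread between these mice, which may not be independent. No 2 libraries of a group agreed within sampling noise (lowest chi-square per degree of freedom 6.54).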

Additional observations from a re-analysis of the deposited data

Results flagged for a closer look

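In each group of 6, a mouse was singled out for a gene where its gap to the nearest other mouse exceeded Dixon's 95% critical value, as a share of the range of the group. This held for 44 of 402 group and gene pairs tested, and pairs of 1 mouse do not count as separate observations. Chance alone would single out about 1 pair in 20 among genes chosen without regard to their values. Some of these genes were named after their values were seen, and CPM were used without a log scale, so that the 2 rates cannot be compared. Fasted mouse ONF_WT_807 stood apart in 11 genes, as the highest for Apcs (74.9 CPM), C4b (2151 CPM), Derl3 (4.77 CPM), Fga (6533 CPM), Fgb (5538 CPM), Fgg (4372 CPM), Pdia6 (167 CPM), Saa1 (1661 CPM) and Sdf2l1 (14.02 CPM) and as the lowest for Eif4b (270.2 CPM) and Odc1 (38.8 CPM). Refed mouse RF6_WT_828 stood apart in 10 genes, as the highest for E2f8 (13.1 CPM), Fga (3817 CPM), Fgb (3779 CPM), Fgg (2705 CPM), Ldha (1257 CPM), Myc (11.3 CPM), Nr1h3 (153 CPM), Saa1 (295 CPM) and Steap4 (269 CPM) and as the lowest for Rictor (26.6 CPM). Refed mouse RF6_WT_816 stood apart in 8 genes, as the highest for 4930483K19Rik (7.32 CPM), Aacs (328 CPM), Acaca (172 CPM), Eif2b3 (18.6 CPM), Elovl6 (181 CPM), Fasn (1044 CPM), Hsd17b7 (225 CPM) and Manf (174 CPM). Refed mouse RF6_WT_900 stood apart in 4 genes, as the highest for Fgf21 (22.6 CPM), Gadd45a (12.5 CPM), Khk (207 CPM) and Odc1 (126 CPM). Refed mouse RF6_WT_901 stood apart in 5 genes, as the highest for Ciart (17.9 CPM), Per1 (29.1 CPM), Pfkfb3 (17.6 CPM), Unc79 (0.607 CPM) and Uvrag (46.2 CPM). Fasted mouse ONF_WT_825 stood apart in 3 genes, as the highest for Cyp2b9 (75.0 CPM) and Pik3r3 (2.44 CPM) and as the lowest for Mvk (4.30 CPM). Single genes set apart fasted mouse ONF_WT_920 (Gpat4, 445 CPM), refed mouse RF6_WT_896 (Insig2, 134 CPM) and fasted mouse ONF_WT_919 (Pnpla2, 66.8 CPM).

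Responses that differed between the number series by edgeR's interaction test, given as the low-numbered minus the high-numbered log2 fold change, were those of Aldoc (2.02), Baiap2 (-0.80), Cdkn1a (-3.11), Ciart (2.60), Glcci1 (-2.56), Got1 (0.86), Gpr146 (0.65), Pfkfb1 (1.06) and Stard4 (1.02). The adjusted p-values ran from 0.00585 to 0.0261. Each rests on 3 fasted and 3 refed mice a series.

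Responses of named genes that differed between genotypes by the same kind of test, given as wild-type minus Pik3r1 WT/Y657* log2 fold change, were those of Clk1 (0.67), Gm16573 (1.43), Irs1 (-0.55), Rpl12 (0.66), Rps15a (0.64), SNORA14 (1.48), SNORA63 (1.24), Trib1 (-0.66), Uqcr10 (0.42) and Yod1 (1.03). Trib1, a pseudokinase of the insulin signalling list, stood at -0.39 in wild-type and 0.27 in mutant mice.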

How the results depend on the processing

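Over the alternatives, the count of genes called ran from 4217 to 5022, and from 4385 to 4932 with single mice left out. It was 2757 in the low series alone, with fewer mice, and 3387 in the high series alone. Genes called with at least a 2-fold change ran from 450 to 640 and from 437 to 496, but were 288 when at least 10 counts were asked in every library, which tests fewer genes. The count of series differences was 32 by a likelihood ratio test and 3 to 21 with single mice left out, so that it rests on few mice. The count of genotype differences was 201 with library size scaling, 148 with the length and GC offset and 156 to 414 with single mice left out. The cause was not tested.

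Of the values of named genes under alternatives other than leaving out single mice, 2631 kept direction and call, 126 lost the call, 19 gained it and 19 turned in sign. Turned log2 fold changes were, with the high series alone Aldoc (-0.21), Atf6 (0.072), Gpr146 (-0.30), Hsd17b7 (-0.024), Pfkfb1 (-0.00073) and Tm7sf2 (-0.14), with library size scaling Atf6 (0.053) and Myc (0.00011), with the length and GC offset Atf6 (0.024), with mice ONF_WT_807 and RF6_WT_828 left out Atf6 (0.017) and Gpr146 (-0.049), with the low series alone Baiap2 (-0.25), Ebp (0.13), Glcci1 (-1.02), Myc (0.49) and Nr1d1 (0.031), with no series block Gpr146 (-0.0043), with all 36 libraries Gpr146 (-0.00085) and Myc (0.026). With single mice left out the log2 fold change ran from -0.060 to 0.026 for Atf6, from -0.026 to 0.075 for Gpr146, from -0.57 to 0.065 for Myc, from -2.83 to 0.39 for Saa1. Of these genes, Pfkfb1 had been called in the 12 libraries and the others had not.

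No paired analysis was possible because no mouse number is shared between fasted and refed mice. The number series served as the block, and without it 4784 genes were called and the calls for Apcs and Dbp were lost (edgeR, adjusted p = 0.0696 and 0.0918). The offset and the fit without mice ONF_WT_807 and RF6_WT_828 were added after the data were seen. Between 8839488 and 19542775 counts per library limit what can be said of genes below about 1 CPM.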

Other observations

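Genes outside the lists also differed between the groups, and these were chosen after their values were seen. C4a, a complement gene with a near-identical neighbour C4b whose reads may be shared, stood at 8.74 to 13.4 CPM (median 10.9) in fasted and 37.1 to 53.7 CPM (median 45.1) in refed mice without overlap (log2 2.05 ± 0.09; edgeR, adjusted p = 8.05e-12) and at 44.8 to 113 CPM (median 76.1) in fed mice. It had the second smallest p of all genes tested. The neighbour C4b stood at 876 to 2151 CPM in fasted and 683 to 1462 CPM in refed mice. C4b was not called in the 12 libraries. Without mice ONF_WT_807 and RF6_WT_828 it was called lower (log2 -0.42, edgeR adjusted p = 0.00629). The part of shared reads in the C4a difference was not tested. Acta2, the smooth muscle actin of vessel walls and activated stellate cells, stood at 1.16 to 15.02 CPM (median 3.12) in fasted and 0.369 to 1.81 CPM (median 0.874) in refed mice (log2 -2.65 ± 0.70; edgeR, adjusted p = 0.0148). The groups overlapped for Acta2. Its call was lost by limma-voom (adjusted p = 0.0578) and in the low and high series alone (edgeR, adjusted p = 0.194 and 0.065). Unc79, which encodes a subunit of a sodium leak channel complex, fell by 2.89 ± 0.49 log2 units to a median of 0.123 CPM.

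The refed median of the called members was also placed against the 6 fed mice, list by list, a comparison that was not tested. It lay above all fed mice for 46 of 73 ribosomal protein genes, 20 of 30 oxidative phosphorylation genes and 6 of 11 clock genes. It lay below all fed mice for 10 of 16 insulin signalling genes, 8 of 16 gluconeogenesis genes and 13 of 21 amino acid breakdown genes. The share over all called genes was not determined, so that such counts, here and above, do not set a list apart from other genes. Fed mice belonged to neither number series, and neither series nor time of day can be told apart from state in this comparison. Saa1 ranged from 235 to 3991 CPM (median 971) in fed mice, above every fasted and refed mouse other than mice ONF_WT_807 and RF6_WT_828. It was highest in fed mice ALC_WT_847 and ALC_WT_849, which were kept in the fed range throughout.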
